A study of Mus musculus with 9 samples.

Results

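The genes described here are 9 of the 56748 genes in the count table of a mouse liver RNA sequencing study, chosen by symbol: the urea cycle genes Nags, Cps1, Otc, Ass1 and Asl, the mitochondrial ornithine carrier Slc25a15, and the ammonia-handling genes Gls2, Sds and Glul. All 9 had a row in the table, and all 9 passed the filter on low counts in each of the 3 comparisons. Livers came from mice labelled C57BL/6, given as C57BL/6J in the methods and 7 to 8 weeks old when bought, 3 in each of the groups labelled Control, DSS and Indirubin. Mice of the DSS group drank 1.8% dextran sulfate sodium, an agent that injures the colon lining, over 3 cycles of 1 week each with 1 week of recovery after each, and took 200 µL of sterile water by mouth daily. Mice of the Indirubin group had the same DSS cycles and took 1 g/kg of indirubin, a plant-derived ligand of the aryl hydrocarbon receptor, in the same volume daily. The Control samples are labelled with water alone, while the series' design text describes colitis for the mice as a whole, so it is not certain from the sources that the Control mice had no DSS. Nothing in the sources gives the sex of the mice or says that tissue was pooled, and p-values measure the spread between these 9 samples.

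The liver removes ammonia by 2 routes placed at opposite ends of the lobule. Around the portal vein, hepatocytes release ammonia from glutamine and serine (Gls2, Sds), fix it as carbamoyl phosphate in mitochondria (Cps1, which needs N-acetylglutamate made by Nags), pass it to ornithine (Otc), and carry the nitrogen on in the cytosol through argininosuccinate (Ass1, Asl). Ornithine returns to the mitochondrion through Slc25a15. In the last cells before the central vein, glutamine synthetase (Glul) takes up the ammonia that is left. In bulk tissue, fewer cells of a type and less RNA per cell cannot be told apart.

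The libraries held 6514863 to 7944684 counts, of which genes of the mitochondrial genome took 71.6% to 91.3%, so that 569044 to 2132208 counts per library were left for nuclear genes. Levels are given as normalized CPM, the CPM scaled by TMM factors of all 9 libraries together, and differences as log2 fold changes from edgeR's quasi-likelihood test. The hepatocyte markers were at 17380 to 42870 summed CPM with none of the 15 at 0 in any library. The sums were 17380 to 28470 CPM in Indirubin and 18370 to 29090 in Control. Of these 15 genes, 11 had negative log2 fold changes for Indirubin against Control, 5 of them at an unadjusted p under 0.05. The median was -0.37 beside 0.13 over all genes tested, of which 6.38% were lower at that p. The 4 others were positive: Hpx (2.48, adjusted p = 0.136), Fga (1.16), Fgb (1.12) and Trf (1.06). Against DSS, 13 of the 15 were negative in Indirubin, with a median of -0.50 beside 0.15. For DSS against Control 7 were negative, with a median of 0.13 beside 0.01, and Hpx was at 2.655 (adjusted p = 0.0321). Indirubin-2 and Indirubin-3 stood apart. There 20 pancreatic acinar genes summed to 1502 and 1521 CPM, against 11.2 in Indirubin-1 and at most 24.6 in the other groups. The sums of 12 genes listed for neutrophils were 698 and 898 CPM, against 35.6 in Indirubin-1, 43.4 to 256 in DSS and 5.11 to 11.5 in Control. In DSS-2 this sum was 222.7 CPM with 9 of the 12 genes at 0. Lcn2 had the largest log2 fold change of the tested genes of this list against Control. It was 6.40 for DSS (adjusted p = 0.0239) and 7.83 for Indirubin (adjusted p = 0.0907). The 15 Kupffer cell genes summed to 321 and 292 CPM in these 2 libraries against 134 to 230 in the 7 others, and 10 stellate and fibroblast genes to 224 and 228 CPM against 80.2 to 198 in the 7 others. In Indirubin-3, 8 enterocyte genes summed to 172.8 CPM, with 2 of them at 0, against at most 27.2 in the 8 others. Of the 2 tested for Indirubin against DSS, Apoa4 was higher (3.73, adjusted p = 0.473, with overlap). Fabp2 was lower (-1.06, adjusted p = 0.793, without overlap). The 8 cholangiocyte genes summed to 40.5 CPM in Indirubin-3, against at most 13.3 in the 8 others. Indirubin-2, Indirubin-3 and DSS-3 also had the lowest mitochondrial shares, 71.6%, 77.2% and 72.4%, against 85.8% to 91.3% in the 6 others. The part of these marker sums, of the hepatocyte markers and of the mitochondrial share in the results on nitrogen genes was not tested. Nor was it tested which cells the listed transcripts came from. Results on members that rest on Indirubin-2 and Indirubin-3 are given also with Indirubin-1 as the one library of its group.

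At the entry of the cycle, Nags (ENSMUSG00000048217, chromosome 11, 102036339 to 102040303 in GRCm39, as all gene positions here) had the lowest mean level per length of the members in all 3 groups. It stood at 9.34, 3.17 and 3.17 normalized CPM in Control, 1.78, 5.49 and 3.75 in DSS and 3.49, 6.39 and 3.28 in Indirubin, from 13 to 78 counts per library. The groups overlapped, and 1 Control library stood above the rest. Cps1 (ENSMUSG00000025991, chromosome 1, 67162185 to 67270418) encodes the enzyme that commits ammonia to the cycle. It was at 43.8, 31.7 and 37.0 normalized CPM in Control, 30.0, 20.9 and 28.2 in DSS and 27.4, 67.2 and 37.0 in Indirubin. Every DSS library was below every Control library, with a log2 fold change of -0.47 (standard error 0.32, adjusted p = 0.896), and the highest value of all was in Indirubin-2.

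Otc (ENSMUSG00000031173, chromosome X, 10118544 to 10187263), which joins carbamoyl phosphate to ornithine, had the smallest spread of the members in Control relative to its mean, and its own lowest values with indirubin. Its levels were 51.2, 48.8 and 53.1 normalized CPM in Control, 23.2, 36.5 and 44.2 in DSS and 27.9, 14.75 and 6.83 in Indirubin. The 3 Control libraries lay above the 6 others, and Indirubin-2 and Indirubin-3 lay below every DSS library. Indirubin-1, at 27.9, lay within the DSS range. Against DSS the Indirubin group was lower by a log2 fold change of -1.08 (standard error 0.51, adjusted p = 0.672), and the groups overlapped. Against Control the Indirubin group was lower by a log2 fold change of -1.62 (standard error 0.47, 95% interval -2.65 to -0.60, adjusted p = 0.155), a 3.08-fold difference of the fitted means. The DESeq2 Wald test put the adjusted p at 0.0389, and edgeR with no filter on low counts at 0.038, while with library size alone as the scaling the log2 fold change was -0.80 (adjusted p = 0.323), beside a median of 1.11 over all genes. With Indirubin-1 as the one library of its group, the log2 fold change was -0.88 (adjusted p = 0.675).

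Slc25a15 (ENSMUSG00000031482, chromosome 8, 22865567 to 22888613, minus strand) carries ornithine into the mitochondrion, where Otc uses it. It stood at 14.8, 27.0 and 14.4 normalized CPM in Control, 35.4, 25.3 and 37.7 in DSS and 25.0, 14.75 and 6.91 in Indirubin. The DSS libraries held the highest 2 values, and every Indirubin library was below every DSS library, though the nearest 2 stood at 25.0 and 25.3. The log2 fold change was 0.85 for DSS against Control (standard error 0.35, adjusted p = 0.560) and -1.08 for Indirubin against DSS (standard error 0.48, adjusted p = 0.628). With Indirubin-1 as the one Indirubin library the second of these was -0.39 (adjusted p = 1.00).

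Of the cytosolic enzymes, Ass1 had the highest level per length of all members in every library. Ass1 (ENSMUSG00000076441, chromosome 2, 31360219 to 31410684), which joins citrulline and aspartate, was at 270, 302 and 154 normalized CPM in Control, 138, 143 and 277 in DSS and 224, 151 and 72.9 in Indirubin. These groups overlapped in all 3 comparisons. Asl (ENSMUSG00000025533, chromosome 5, 130040099 to 130058088, minus strand), which splits argininosuccinate into arginine and fumarate, was at 59.0, 67.5 and 65.8 in Control, 34.0, 38.3 and 59.0 in DSS and 58.4, 92.9 and 58.9 in Indirubin. The highest DSS library lay just above the lowest Control library, and the log2 fold change was -0.52 (standard error 0.30, adjusted p = 0.821).

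**Figure D1:**
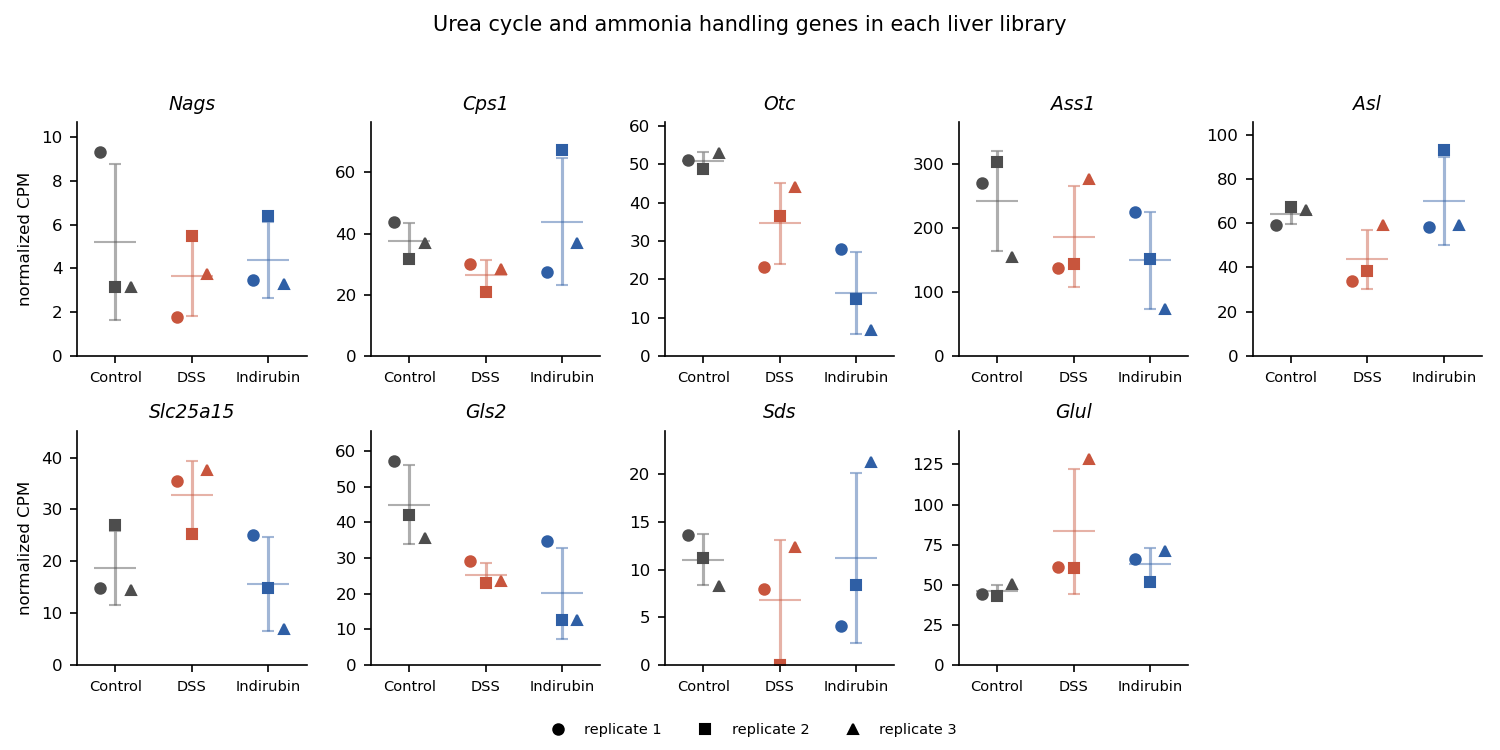
Level of each of the 9 genes in normalized CPM (vertical axis, from 0, a scale per gene) in the Control, DSS and Indirubin libraries, with a symbol for each replicate and bars for the group mean ± SD (n = 3). Otc and Gls2 in Indirubin-2 and Indirubin-3 lie below all other libraries, and Glul in DSS-3 lies above them.

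Of the genes that feed ammonia to the cycle, Gls2 (ENSMUSG00000044005, chromosome 10, 128030326 to 128045873), the liver glutaminase, was lower in both DSS-treated groups. Its levels were 57.2, 42.1 and 35.6 normalized CPM in Control, 29.0, 23.0 and 23.7 in DSS and 34.9, 12.7 and 12.7 in Indirubin. All 6 libraries of mice on DSS lay below the 3 Control libraries, and Indirubin-2 and Indirubin-3 lay below the DSS group. The log2 fold change was -0.79 for DSS against Control (standard error 0.32, adjusted p = 0.549) and -1.15 for Indirubin against Control (standard error 0.45, adjusted p = 0.277). It was -0.38 against Control with Indirubin-1 as the one library (adjusted p = 0.941). Gls2 overlaps Spryd4 on the other strand, which had 258 counts in all, and whether the counting used strand is not given in the sources used here.

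Sds (ENSMUSG00000029597, chromosome 5, 120614591 to 120621997), the serine dehydratase of gluconeogenic periportal cells, had the widest spread of the members relative to its mean within DSS and within Indirubin, though not within Control. It was at 13.6, 11.3 and 8.28 normalized CPM in Control, 7.94, 0 and 12.4 in DSS and 4.04, 8.36 and 21.3 in Indirubin. The groups overlapped in all 3 comparisons, and the count of 0 in DSS-2 stands beside 118 counts of Cps1 there. A count of 0 allows up to 3 counts in that library, which covers counting error only. Sds overlaps Plbd2 on the other strand, which had 756 counts in all.

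Glul (ENSMUSG00000026473, chromosome 1, 153775690 to 153785469), glutamine synthetase and the one pericentral gene of the set, went the other way from Gls2. It stood at 44.4, 43.0 and 50.2 normalized CPM in Control, 60.9, 60.6 and 128 in DSS and 66.3, 51.7 and 71.0 in Indirubin. All 6 libraries of mice on DSS were above the 3 Control libraries, and DSS-3 was far above the rest. The log2 fold change was 0.88 for DSS against Control (standard error 0.34, 95% interval 0.15 to 1.60, adjusted p = 0.488), and 0.47 without DSS-3 (adjusted p = 0.860). It was 0.48 for Indirubin against Control (standard error 0.34, adjusted p = 0.588) and -0.40 for Indirubin against DSS (standard error 0.42, adjusted p = 0.943). The last of these ran from -0.69 to 0.043 over the fits that left out 1 library. Glul overlaps Teddm2 on the other strand, which had 25 counts in all.

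No member passed an adjusted p of 0.05 in any comparison, where 0.708% of the 7482 genes tested passed for DSS against Control, 0% of 9117 for Indirubin against DSS (unadjusted p under 0.05 for 406 genes on the high and 294 on the low side, and 80 genes past the adjusted threshold with the DESeq2 Wald test) and 0.236% of 8059 for Indirubin against Control. At an unadjusted p under 0.05, DSS against Control had 2 members higher (Glul, Slc25a15), where 3.48% of all genes were higher, and 1 lower (Gls2), where 4.05% were lower. Indirubin against DSS had none higher (4.45% of all genes) and 1 lower (Slc25a15; 3.22%). Indirubin against Control had none higher (7.45%) and 2 lower (Otc, Gls2; 6.38%).

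Groups that did not overlap give the same genes a second description. For DSS against Control, 1 member lay wholly above (Glul), where 7.1% of all genes did, and 3 lay wholly below (Cps1, Otc, Gls2), where 8.54% did. For Indirubin against DSS no member lay above, where 10.5% of all genes did, and 1 lay below (Slc25a15), where 5.92% did. For Indirubin against Control, 1 lay above (Glul; 12.2% of all genes) and 2 below (Otc, Gls2; 9.32%). An exact permutation test of 3 against 3 libraries has 20 splits and cannot go under p = 0.1, which each of these members reached.

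By direction alone, 7 of the 9 members had a negative log2 fold change for DSS against Control, with a median of -0.48 beside 0.01 over all genes tested, and both with a positive one were Glul and Slc25a15. For Indirubin against DSS, 4 were positive and 5 negative, with a median of -0.31 beside 0.15, and for Indirubin against Control 4 and 5, with a median of -0.22 beside 0.13. With library size alone as the scaling, the median of all genes moved to 0.70 for DSS against Control and that of the members to 0.22. Cps1, Otc, Ass1, Asl, Nags and Sds then had positive values for DSS against Control, so their direction there holds relative to the other genes. Glul, Slc25a15 and Gls2 kept their signs there, but Gls2 moved to -0.13 (adjusted p = 0.915) for DSS against Control and to -0.40 (adjusted p = 0.604) for Indirubin against Control, and neither it nor Otc then had an unadjusted p under 0.05 in a comparison with Control.

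**Figure D2:**
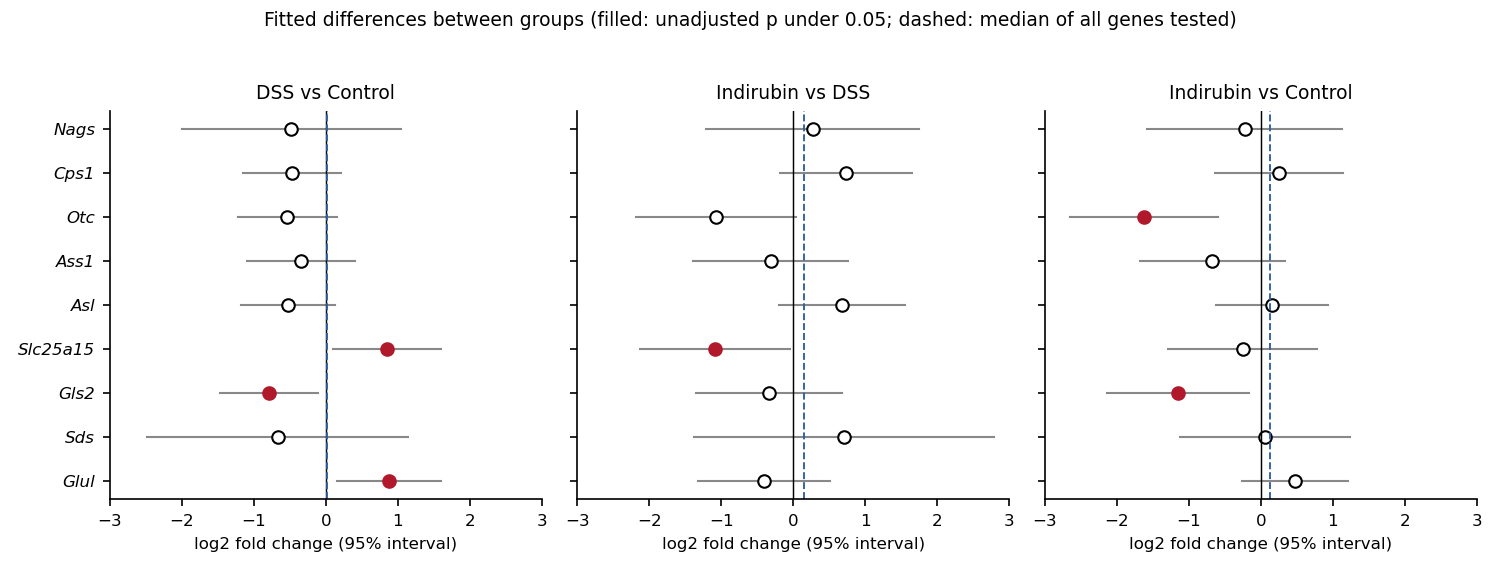
Log2 fold change of each gene (horizontal axis, 95% interval as a line) for DSS against Control, Indirubin against DSS and Indirubin against Control, with filled points at an unadjusted p under 0.05 and a dashed line at the median of all genes tested. The filled points are Glul, Slc25a15 and Gls2 in the first panel, Slc25a15 in the second and Otc and Gls2 in the third.

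The calls against Control changed with the Indirubin libraries in the fit. Without Indirubin-1, the library with few acinar and neutrophil counts, 2 members passed an adjusted p of 0.05: Otc at -2.35 (adjusted p = 0.0049) and Gls2 at -1.93 (adjusted p = 0.0071), and 465 genes passed in all in place of 19. Leaving out any other library left no member past that threshold. The log2 fold change of Otc ran from -2.35 to -1.25 and that of Gls2 from -1.93 to -0.92 over the 6 fits that left out 1 library. For Indirubin against DSS the same omission gave no member past the threshold, with 134 genes passing in place of 0.

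**Figure D3:**
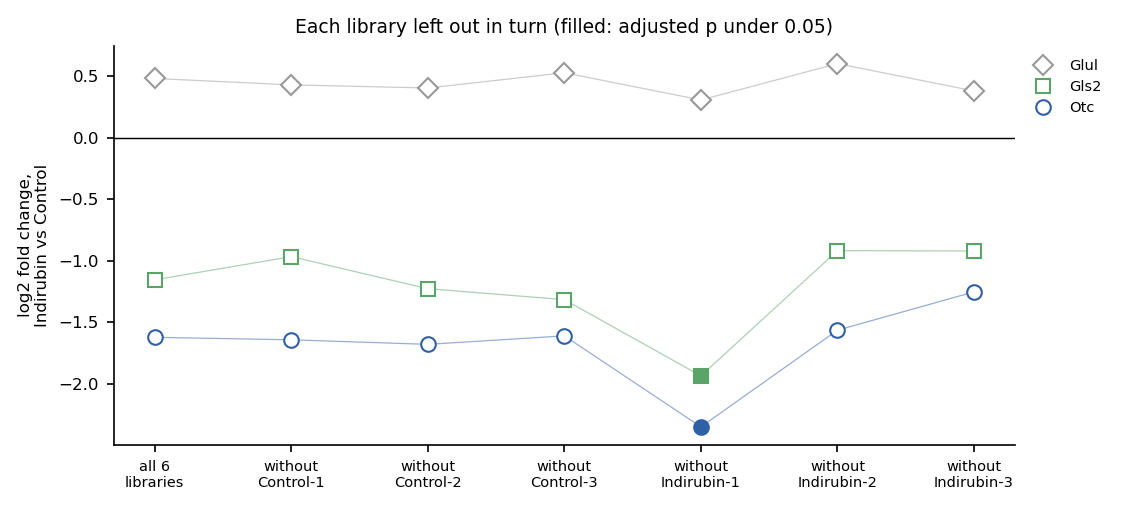
Log2 fold change for Indirubin against Control (vertical axis) of Glul, Gls2 and Otc with all 6 libraries and with each left out in turn (horizontal axis), filled where the adjusted p was under 0.05. The filled points are Otc and Gls2 without Indirubin-1.

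Ratios of 2 genes within a library do not depend on how the libraries were scaled, and they set the portal against the central route. The ratio of Otc to Glul, each per length, was 1.03, 1.01 and 0.944 in Control, 0.340, 0.537 and 0.307 in DSS and 0.376, 0.254 and 0.0857 in Indirubin. Control lay wholly above both other groups. The ratio of Gls2 to Glul, the enzymes that open and close glutamine cycling across the lobule, was 1.40, 1.07 and 0.772 in Control, 0.519, 0.414 and 0.201 in DSS and 0.573, 0.267 and 0.195 in Indirubin.

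The ratio of Cps1 to Glul was 0.672, 0.502 and 0.502 in Control, 0.335, 0.235 and 0.150 in DSS and 0.281, 0.885 and 0.355 in Indirubin. It was lower in every DSS library than in every Control library, while the Indirubin group spanned both. On the log2 scale the DSS group was below Control by 1.28 for Cps1, a 2.43-fold difference, by 1.38 for Otc, a 2.60-fold difference, and by 1.58 for Gls2, a 2.99-fold difference, each relative to Glul. Indirubin against Control differed by -2.30 for Otc and by -1.76 for Gls2 relative to Glul. Of 9 differences over 3 ratios, those 5 had groups that did not overlap, each with an exact two-sided permutation p = 0.1, the smallest that 3 against 3 allows, and 0.18 after Benjamini-Hochberg adjustment over the 9. Each follows from the levels above, since in each the first gene was wholly below and Glul wholly above Control. Of all other genes tested, the ratio to Glul lay wholly below Control for 24.2% and wholly above for 0.802% in DSS, and for 17.8% and 5.67% in Indirubin. Between Indirubin and DSS, where none of the 3 ratios parted the groups, 2.28% lay wholly below DSS and 14.4% wholly above.

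Summed per length, the 5 periportal members Cps1, Ass1, Asl, Gls2 and Sds stood at 13.3, 14.4 and 7.49 times Glul in Control, 5.13, 4.84 and 4.31 times in DSS and 6.98, 7.49 and 3.48 times in Indirubin. Every DSS library was below every Control library, and the lowest value of all was in Indirubin-3. Ass1 made up 34.3% of the summed level per length of the 9 genes in Indirubin-3, against 49.7% to 65.1% in the 8 other libraries.

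Chosen after the values were seen, and so given with no test, the ratio of Slc25a15 to Cps1 per length was 0.333, 0.839 and 0.383 in Control, 1.17, 1.20 and 1.32 in DSS and 0.901, 0.217 and 0.185 in Indirubin. The 3 DSS libraries were the highest, and Indirubin-2 and Indirubin-3 the lowest.

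**Figure D4:**
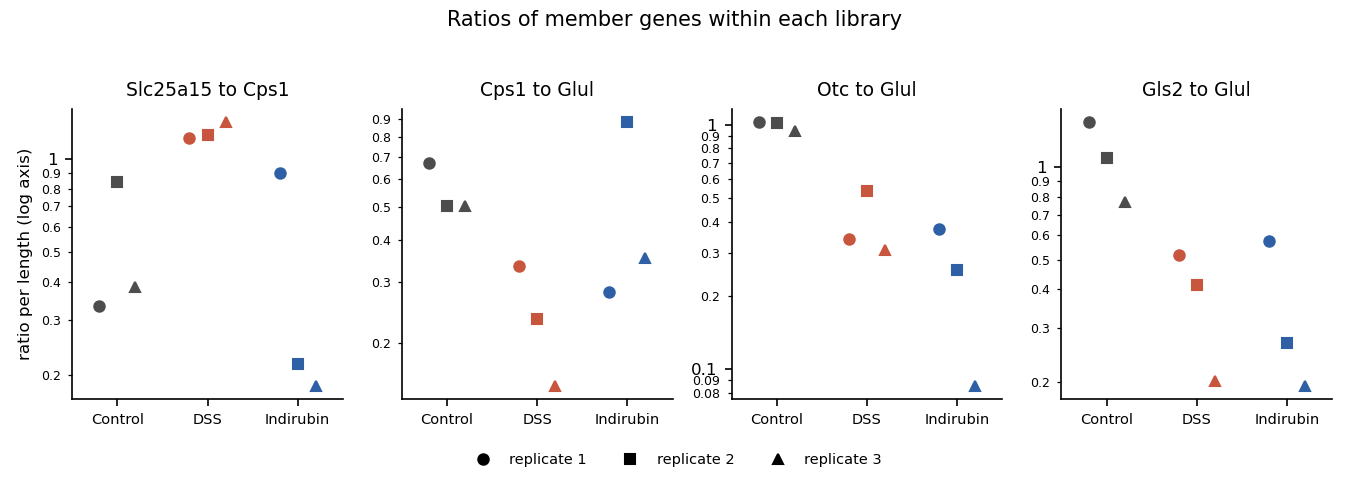
Ratio of 2 genes per length within each library (vertical axis, logarithmic, a scale per panel) by group, with a symbol for each replicate. Slc25a15 to Cps1 is highest in the 3 DSS libraries, at 1.17 to 1.32, and Otc to Glul and Gls2 to Glul lie higher in the 3 Control libraries than in the 6 others.

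Per kilobase of gene length, the order of the mean levels in Control was Ass1 at 100.4 ± 32.2 normalized CPM per kb (SD, n = 3), then Asl, Gls2, Glul and Otc between 12.0 and 13.3, Cps1 at 6.75 ± 1.09, Sds at 6.53 ± 1.58, Slc25a15 at 3.32 ± 1.27 and Nags at 1.84 ± 1.26. Neighbours within the 4 genes from Asl to Otc, and Cps1 and Sds, did not differ beyond their spread, while the other neighbours in the order were further apart than the SD of either. In DSS, Glul followed Ass1 at 22.0 ± 10.3. In Indirubin, Ass1 was first at 61.9 ± 31.4 and Glul next at 16.7 ± 2.66, and Otc was number 7 at 3.89 ± 2.51. Cps1, known as one of the most abundant mitochondrial proteins of liver, was number 6 of the 9 in Control, 7 in DSS and 4 in Indirubin by this level per length.

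Across the 9 libraries the members did not move as 1 block. On log2 levels, Pearson's r was 0.82 between Otc and Gls2, 0.80 between Otc and Ass1, 0.75 between Cps1 and Asl and 0.71 between Ass1 and Gls2, but -0.55 between Cps1 and Slc25a15 and -0.32 between Cps1 and Otc. Each r is a description over 9 libraries that share their group, depth and scaling. Of 9713 genes, those most like the mean pattern of 6 urea cycle genes (Nags, Cps1, Otc, Ass1, Asl and Slc25a15), themselves left out, were Gnmt (r = 0.96), Pecr (r = 0.94), Acad8, Abhd17c and Lin37. Those most like Glul were Dnajc3 (r = 0.90), Itgb1, Usp45, Lgals1 and Dlg3. Gnmt, a glycine methyltransferase, was at 165, 155 and 150 normalized CPM in Control, 92.3, 95.9 and 177 in DSS and 122, 125.5 and 63.8 in Indirubin. Dnajc3, a chaperone of the endoplasmic reticulum, was highest at 56.1 in DSS-3, the library with the highest Glul.

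Promoter sequences were read for the members with a window in the table. RefSeq windows on GRCm38.p6 were held for 5 of the 9 members (Otc, Slc25a15, Glul, Ass1 and Nags); Cps1, Asl, Gls2 and Sds had none in the table. The 250 bases before the start are shown for Otc, the member furthest below Control with indirubin, for Slc25a15, the one member below all DSS libraries in the Indirubin group (its 5′-most start), and for Glul, the central gene. Capitals mark the letters GCGTG on either strand, the core of the element bound by the aryl hydrocarbon receptor, a search added after the values were seen. The windows lie at chrX:10252055-10252304 on the plus strand, chr8:22398622-22398871 on the minus strand and chr1:153899679-153899928 on the plus strand.
Otc: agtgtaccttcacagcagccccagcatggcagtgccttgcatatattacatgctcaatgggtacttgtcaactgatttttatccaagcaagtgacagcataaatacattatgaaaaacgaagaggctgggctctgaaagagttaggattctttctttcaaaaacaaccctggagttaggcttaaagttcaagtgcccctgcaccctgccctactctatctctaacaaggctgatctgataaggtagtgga
Slc25a15: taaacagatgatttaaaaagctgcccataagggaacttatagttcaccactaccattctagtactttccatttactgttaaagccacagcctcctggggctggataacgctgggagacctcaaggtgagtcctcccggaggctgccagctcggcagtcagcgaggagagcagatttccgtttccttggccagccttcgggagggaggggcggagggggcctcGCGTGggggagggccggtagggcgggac
Glul: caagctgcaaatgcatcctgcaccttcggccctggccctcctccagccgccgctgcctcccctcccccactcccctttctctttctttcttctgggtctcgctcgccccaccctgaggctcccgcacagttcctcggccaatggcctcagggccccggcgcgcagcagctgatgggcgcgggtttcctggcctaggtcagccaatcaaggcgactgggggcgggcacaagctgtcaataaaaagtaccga
The core was present 1 time in the Slc25a15 window, starting 28 bases before the start, and 2 times in that of Ass1. It was not in the windows of Otc, Glul and Nags or in the second Slc25a15 window. By comparison, 28.2% of 32851 RefSeq windows of the same length held it on either strand. The other letters searched were TGACGTCA (1.55% of windows), TGACGCAA (0.438%), TTGCGCAA (0.164%), TTNNGCAA (9.56%), TATAAA (12.4%), the direct repeat of HNF4 (0.0335%) and the glucocorticoid response element (0.387%), and none of them was in the 6 member windows. The share of G and C was 43.6% in the Otc window, 57.6% in that of Slc25a15 and 64.8% in that of Glul. A match or its absence in these windows is a description of letters and says nothing of binding.

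The neighbours of these enzymes were read from 4 further lists, none of which had a gene past an adjusted p of 0.05 except as named. The list of ammonia and glutamine handling, which holds Glul itself, had 17 tested genes for DSS against Control. An unadjusted p under 0.05 was found for 1 higher gene (Glul) and 3 lower ones, with a median log2 fold change of -0.50. Over all genes tested, 3.48% were higher and 4.05% lower at that p, with a median of 0.01. Gpt2, the mitochondrial alanine aminotransferase, was at a mean of 17.6 normalized CPM in DSS against 33.9 in Control (log2 fold change -0.91, adjusted p = 0.393) and 35.3 in Indirubin (0.998 against DSS, adjusted p = 0.524), with no overlap either time. Car5a, the mitochondrial carbonic anhydrase that supplies bicarbonate to Cps1, differed by -1.97 for DSS against Control (adjusted p = 0.592), but the groups overlapped. The value rested on Control-3 at 16.8 normalized CPM, with the 2 other Control libraries at 2.92 and 2.29 and DSS at 1.90, 1.06 and 2.56, and without Control-3 it was -0.48 (adjusted p = 0.999).

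At an unadjusted p under 0.05, 1 gene of this list was higher and 2 were lower for Indirubin against DSS. Over all genes tested, 4.45% were higher and 3.22% lower. For Indirubin against Control none was higher and 1 lower, where 7.45% and 6.38% of all genes were. Slc1a2, a glutamate transporter of pericentral hepatocytes, was at a mean of 0.578 normalized CPM in Indirubin and 5.07 in DSS (adjusted p = 0.577), with 9, 1 and 0 counts in the 3 Indirubin libraries. Counts this low set no firm fold, and with Indirubin-1 as the one library the log2 fold change was -1.62 (adjusted p = 1.00). Slc38a3, the glutamine transporter of the hepatocyte membrane, was at 27.6 in Indirubin and 66.2 in Control (-1.24, adjusted p = 0.245) with no overlap, and the value was -0.69 with Indirubin-1 as the one library (adjusted p = 0.815) and -1.78 without it (adjusted p = 0.036). Glud1, glutamate dehydrogenase, lay wholly above Control in DSS (0.52, adjusted p = 0.765).

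In the ornithine, arginine and polyamine branch, Prodh2, a dehydrogenase of hydroxyproline, passed the adjusted threshold for Indirubin against Control. Its mean was 4.17 normalized CPM in Indirubin and 26.7 in Control, a log2 fold change of -2.66 (standard error 0.46, adjusted p = 0.0413). The call held without Indirubin-1 (adjusted p = 0.0067) and was lost on leaving out any of the 5 other libraries, with values of -2.96 to -2.33 and adjusted p from 0.148 to 0.328, and with Indirubin-1 as the one library (-2.49, adjusted p = 0.107). Its libraries stood at 4.77, 5.57 and 2.16 in Indirubin, so that Indirubin-1 lay with the others of its group, and at 7.23, 7.98 and 35.6 in DSS. Gamt, which makes creatine, was at 7.33 in Indirubin against 30.3 in Control (-2.07, adjusted p = 0.172) and 21.5 in DSS (-1.59, adjusted p = 0.599), without overlap in both cases. Its Indirubin libraries stood at 16.3, 2.70 and 2.94, so that Indirubin-1 lay just below the lowest DSS library at 16.7, and with Indirubin-1 as the one library the log2 fold change was -0.90 against Control (adjusted p = 0.731) and -0.39 against DSS (adjusted p = 1.00). Without Indirubin-1 Gamt passed in both, at -3.53 (adjusted p = 0.00061) and -3.03 (adjusted p = 0.0078). Of 16 genes of this list tested for Indirubin against Control, 1 higher and 4 lower genes had an unadjusted p under 0.05. Over all genes tested, 7.45% were higher and 6.38% lower at that p. The higher one, Smox, was at a mean of 3.50 in Indirubin and 0.584 in Control (2.61, adjusted p = 0.311), without overlap. It had 104 counts in all in Indirubin and 8 in Control. Of 14 tested for DSS against Control none was higher and 1, Prodh, lower (-1.80, adjusted p = 0.207), where 3.48% and 4.05% of all genes were. Of 17 tested for Indirubin against DSS none was higher and 2 lower, where 4.45% and 3.22% were.

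Amino acid catabolism, which supplies the nitrogen, held more genes on the low side. Of 36 tested for Indirubin against Control, 27 had negative values, 9 of them and 1 positive value came at an unadjusted p under 0.05, and the median was -0.60. Over all genes tested in that comparison 6.38% were lower and 7.45% higher at that p, and the median was 0.13. Ftcd of histidine breakdown was at 13.3 normalized CPM in Indirubin and 36.9 in Control (-1.44, adjusted p = 0.136), and Haao of tryptophan breakdown at 23.8 and 57.4 (-1.26, adjusted p = 0.170). With Indirubin-1 as the one library Ftcd was at -1.32 (adjusted p = 0.524) and Haao at -0.71 (adjusted p = 0.777), and without Indirubin-1 both passed, at -1.66 (adjusted p = 0.037) and -1.79 (adjusted p = 0.0052). Mat1a, which makes S-adenosylmethionine, was on the other side at 309 and 151 (1.07, adjusted p = 0.316). This rested on Indirubin-2 and Indirubin-3 at 384 and 405, since Indirubin-1 at 138 lay within the Control range of 131 to 171, and with Indirubin-1 as the one library the value was -0.14 (adjusted p = 0.974), against 1.28 without it (adjusted p = 0.018). Tdo2, the first enzyme of tryptophan breakdown, was low in DSS and high in 2 Indirubin libraries: 49.0, 52.1 and 64.1 in Control, 28.4, 23.9 and 37.7 in DSS and 51.6, 114 and 105 in Indirubin. Against DSS it was at 1.58 (adjusted p = 0.433), at 0.78 with Indirubin-1 as the one library (adjusted p = 1.00) and at 1.76 without it (adjusted p = 0.028). For DSS against Control 7 of 34 genes tested were lower and none higher at an unadjusted p under 0.05, with a median of -0.34. Over all genes 4.05% were lower and 3.48% higher, with a median of 0.01. For Indirubin against DSS 2 of 36 were lower and 3 higher, with a median of -0.26. Over all genes 3.22% were lower and 4.45% higher, with a median of 0.15. Bhmt, 1 of the 3 higher, was at a mean of 261 in Indirubin and 100 in DSS (1.38, adjusted p = 0.538), without overlap. With Indirubin-1 as the one library its log2 fold change was 0.885.

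Among regulators known for urea cycle genes, Gcgr, the glucagon receptor, was at 24.1, 34.2 and 26.8 normalized CPM in Control, 4.62, 8.15 and 26.0 in DSS and 13.9, 4.75 and 4.84 in Indirubin. Indirubin lay wholly below Control (-1.86, adjusted p = 0.113), with -1.03 where Indirubin-1 was the one library (adjusted p = 0.641) and -2.67 without it (adjusted p = 0.0017). Cebpb, a factor of the acute phase, was at 17.3, 20.6 and 21.3 in Indirubin and at most 10.5 in the 6 other libraries (1.45 against DSS, adjusted p = 0.618; 1.08 against Control, adjusted p = 0.195). The value against DSS was 0.88 without DSS-2, where Cebpb stood at 1.06 (adjusted p = 0.624). Cebpa and Hnf4a, which drive urea cycle genes in hepatocytes, had log2 fold changes between -0.34 and 0.02. At an unadjusted p under 0.05 this list had 1 gene lower of 14 for DSS against Control and 1 higher of 15 for Indirubin against DSS. For Indirubin against Control it had 1 higher and 1 lower of 15. Of all genes tested, 4.05% were lower in the first comparison, 4.45% higher in the second, and 7.45% higher and 6.38% lower in the third.

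Zonation markers beyond the members give the setting for the portal and central genes. The 10 periportal genes that are not members summed to 1043 to 1717 normalized CPM in Control, 746 to 1185 in DSS and 772.5, 444 and 375 in Indirubin, while 20 pericentral genes other than Glul summed to 390 to 633, 417 to 836 and 622, 362 and 197. Both sums were lowest in Indirubin-2 and Indirubin-3, but Pigr made up most of the periportal sum in the 7 other libraries. Without Pigr the 9 other periportal genes summed to 291 to 324 in Control, 187 to 292 in DSS and 247.5, 311 and 252.5 in Indirubin, and the lowest 2 libraries were then DSS-1 and DSS-2. Cyp2f2, a periportal cytochrome, was at 92.2, 76.1 and 63.1 in Control, 29.2, 32.6 and 29.7 in DSS and 55.1, 8.28 and 8.30 in Indirubin, with no overlap between Control and DSS (-1.30, adjusted p = 0.0798) or Control and Indirubin (-1.69, adjusted p = 0.265). The latter was -0.50 with Indirubin-1 as the one library (adjusted p = 0.893) and -3.33 without it (adjusted p = 0.00022). Pigr, a periportal receptor for immunoglobulin A, was at a mean of 260 in Indirubin, 791 in DSS and 1136 in Control, with 525 in Indirubin-1 and 133 and 122 in Indirubin-2 and Indirubin-3. Against Control it was at -2.11 (adjusted p = 0.141), at -1.12 with Indirubin-1 as the one library (adjusted p = 0.468) and at -3.26 without it (adjusted p = 0.00040). Other periportal genes did not follow this order: of the 14 tested for Indirubin against Control, 6 had positive values. Pck1, which opens gluconeogenesis, was at 68.3, 213 and 168 in Indirubin and 92.4, 103.2 and 114.5 in Control (0.57, adjusted p = 0.641), and Hsd17b6, a hydroxysteroid dehydrogenase, lay wholly above Control (0.71, adjusted p = 0.423). Cyp1a2, a pericentral gene known as a target of the aryl hydrocarbon receptor, was at 67.9 in Indirubin, 21.9 in DSS and 28.6 in Control (1.63 against DSS, adjusted p = 0.436). It was the one pericentral gene with a positive value in that comparison, and the 16 others tested had negative ones.

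Counted with the members they hold, the periportal list had 3 of 14 genes lower (Cyp2f2, Hal, Gls2) and none higher at an unadjusted p under 0.05 for DSS against Control, and the pericentral list 2 of 17 higher (Glul, Rgn) and none lower. For Indirubin against DSS the counts were none higher and 1 lower of the periportal and 1 higher and 1 lower of the pericentral genes. For Indirubin against Control they were none higher and 4 lower of 14 periportal and 1 higher and 1 lower of 14 pericentral genes. Over all genes tested, 3.48% were higher and 4.05% lower at that p for DSS against Control. The shares were 4.45% and 3.22% for Indirubin against DSS, and 7.45% and 6.38% for Indirubin against Control. The medians of the 2 lists for DSS against Control were -0.50 and 0.43, on either side of the 0.01 of all genes. Both were negative in the other comparisons: -0.29 and -0.61 for Indirubin against DSS, beside 0.15 over all genes, and -0.28 and -0.56 for Indirubin against Control, beside 0.13.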

How the data were processed

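Liver RNA of 9 mice was sequenced on a DNBSEQ instrument from 400 ng per sample. The counts deposited by the authors are raw whole numbers per gene, listed with gene lengths, on GRCm39 per the submitters' processing notes; the aligner, counting program and annotation are not given in the sources used here. The FPKM values deposited by the authors follow from these counts once divided by length and a library size (100% of values within 0.1%) and were used only for that check. The log2 fold changes and the p-values that the authors deposited for their own comparisons, and 3 lists of genes found in a single group, were not used.

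The test was the quasi-likelihood F-test of edgeR 4.0.16 (R 4.3.3) after TMM normalization and filterByExpr at its defaults (count 10, total 15), with the 6 libraries of each comparison and Benjamini-Hochberg adjustment over all genes tested. The standard error was the size of the log2 fold change divided by the square root of F, and intervals are 95%. Likeness used log2 CPM with a prior count of 2. Single ratios were compared by two-sided exact permutation. No 2 libraries were identical. Alternatives were DESeq2 1.42.0 size factors or Wald test, library size alone, other filters, all 9 libraries in one fit, a replicate block, no mitochondrial genes and each library left out. The tests were tested on simulated data. Figures were drawn with matplotlib 3.10.9.

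One gene of the set is not reported here, and all counts, medians and sums leave it out. The members and gene lists were chosen with earlier results of these data known. Named were the 9 members described and the 5 genes most like the mean of the urea cycle genes and like Glul. From each list on nitrogen, zonation or regulators, up to 2 genes each way per comparison with the smallest unadjusted p under 0.05 were taken. Of those, Ivd, Aqp9, Cbs and Cyp27a1, all on the low side, are named only here. Glud1, Cebpa, Hnf4a, Pck1 and Hsd17b6 were named after their values were seen. The same holds for the marker genes Hpx, Fga, Fgb, Trf, Lcn2, Apoa4, Fabp2 and Clec4f.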

Additional observations from a re-analysis of the deposited data

How the results depend on the processing

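The counts below are given in the order DSS against Control, Indirubin against DSS and Indirubin against Control, where all 3 changed, and the causes were not tested. As reported, 53, 0 and 19 genes passed an adjusted p of 0.05. Scaling by library size alone gave 19, 2 and 266, the DESeq2 Wald test 143, 80 and 316, dropping the filter on low counts 125, 156 and 379, a filter of 10 counts in each library 84, 2 and 72, a joint fit of all 9 libraries 11, 4 and 56, and the fits leaving out 1 library 12 to 64, 0 to 134 and 1 to 465. Over all alternatives, genes at an unadjusted p under 0.05 numbered 176 to 845 higher and 71 to 455 lower, 203 to 913 and 103 to 579, and 257 to 2115 and 107 to 855. Members past the adjusted threshold numbered 0 in every alternative for the first 2 comparisons. For Indirubin against Control there was 1, Otc, with the DESeq2 Wald test (-1.64, adjusted p = 0.0389) and with no filter (-1.61, adjusted p = 0.038), and 0 to 2 over the fits leaving out 1 library.

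Members at an unadjusted p under 0.05 changed in number as follows. For DSS against Control, 1 higher and 0 lower were found with all 9 libraries in one fit, 0 lower with library size alone, and 0 to 2 higher and 0 to 1 lower on leaving out 1 library. For Indirubin against DSS, 0 were lower with library size alone, 2 lower with no filter and with all 9 libraries, and 0 to 1 higher and 0 to 3 lower on leaving out 1 library. For Indirubin against Control, 3 were higher and 0 lower with library size alone, and 0 higher and 1 to 3 lower on leaving out 1 library.

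Library size alone gave members' medians of 0.22, -0.23 and 0.83, beside medians of all genes of 0.70, 0.43 and 1.11. It turned the sign for DSS against Control of Cps1 (0.23), Otc (0.19), Ass1 (0.40), Asl (0.22), Nags (0.12) and Sds (0.20), and for Indirubin against Control of Ass1 (0.17), Nags (0.83) and Slc25a15 (0.57). On leaving out 1 library the medians ran from -0.71 to -0.33 for DSS against Control, from -0.54 to 0.084 for Indirubin against DSS and from -0.44 to 0.071 for Indirubin against Control, and these values changed sign: for DSS against Control Nags (-0.91 to 0.21), for Indirubin against DSS Ass1 (-0.83 to 0.084), Nags (-0.18 to 0.58), Glul (-0.69 to 0.043) and Sds (-0.13 to 1.45), and for Indirubin against Control Cps1 (-0.20 to 0.37), Asl (-0.11 to 0.27), Nags (-0.61 to 0.47), Slc25a15 (-0.89 to 0.095) and Sds (-0.78 to 0.30).

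With Indirubin-1 as the one Indirubin library, an alternative chosen after seeing the data in which that library is assumed to vary like those of the other group, an unadjusted p under 0.05 was reached by 0 members on the high side and 0 on the low side against DSS, and by 0 and 1 (Sds) against Control, with a median of -0.38. The sign turned against DSS for Ass1 (0.27), Nags (-0.062), Gls2 (0.47) and Sds (-0.77), and against Control for Cps1 (-0.47), Asl (-0.15), Slc25a15 (0.41) and Sds (-1.46). Equal replicate numbers did not pair the libraries: correlations between same-numbered libraries across genes ran from -0.053 to 0.048. With the replicate number as a block 30, 3 and 49 genes were called and no member, with members at an unadjusted p under 0.05 numbering 0 lower for DSS against Control and 2 lower for Indirubin against DSS. The block turned Sds to -0.23 for Indirubin against Control. Ratios of counts in place of ratios per length can move the summed periportal genes only, since the length of a single pair is a constant, and their differences moved by less than the spread between libraries. Nags, at 13 to 78 counts per library, and Sds, at 0 to 246, had the lowest total counts of the members in each group. Whether depth set their spread was not tested.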
